A study of Mus musculus with 21 samples.

Results

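Albumin, the carriers of fetal plasma and the main apolipoproteins were followed as 10 genes among the 24391 gene symbols counted in newborn mice. They were chosen by symbol: albumin (Alb), alpha-fetoprotein (Afp), transthyretin (Ttr), transferrin (Trf), fetuin-A (Ahsg), and the apolipoprotein genes Apoa1, Apoa2, Apob, Apoc3 and Apoe. All 10 symbols were listed for each of the 21 libraries, though some had 0 counts in single brains or skins. The study compared brain, liver and skin RNA of 2 Jak1 knock-in (KI) mice with that of 5 wild-type (WT) mice, on the C57BL/6 strain and at postnatal day 0, with 1 library per mouse and tissue. The KI mice were heterozygous for the Jak1 change H595D together with the silent changes I596I and Y597Y, and the WT mice carried none of these. JAK1 is the tyrosine kinase that passes signals of interferons and of the IL-6 family to STAT transcription factors. According to the study, the KI line was kept through a mosaic male because heterozygous KI mice died young, and a line with the silent changes alone was not analysed here.

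Hepatocytes secrete most plasma proteins. Albumin and its fetal relative alpha-fetoprotein carry fatty acids, bilirubin and other ligands, transferrin carries iron, transthyretin carries thyroid hormone and retinol-binding protein, and fetuin-A binds calcium phosphate. In inflammation, IL-6 acting through JAK1 and STAT3 raises the positive acute-phase proteins, while albumin, transthyretin, transferrin and fetuin-A are known as negative acute-phase proteins that fall. Apolipoproteins hold lipoprotein particles together and direct their uptake. Transthyretin is also made by the choroid plexus, the epithelium that secretes cerebrospinal fluid, and apolipoprotein E by astrocytes and macrophages.

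Alb and Afp arose from a common ancestral gene and lie in tandem. In the NCBIM37 annotation, which is the mm9 build of the counts, Alb spans chr5:90889915-90905629 and Afp chr5:90919740-90937933, both on the plus strand and 14110 bases apart. Their promoter windows, 250 bases before to 50 after the RefSeq start in GRCm38.p6, are shown because both genes were among the 4 most counted in every liver. Capitals mark the 50 bases from the annotated start on. The Alb window is chr5:90460620-90460919 and the Afp window chr5:90490464-90490763, both on the plus strand.
Alb: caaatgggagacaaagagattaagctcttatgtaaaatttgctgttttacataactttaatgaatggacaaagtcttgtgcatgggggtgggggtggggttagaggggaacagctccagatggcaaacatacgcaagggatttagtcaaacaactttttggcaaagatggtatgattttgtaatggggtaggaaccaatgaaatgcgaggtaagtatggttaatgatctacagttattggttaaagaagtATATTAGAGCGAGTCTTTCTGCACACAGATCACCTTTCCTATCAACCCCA
Afp: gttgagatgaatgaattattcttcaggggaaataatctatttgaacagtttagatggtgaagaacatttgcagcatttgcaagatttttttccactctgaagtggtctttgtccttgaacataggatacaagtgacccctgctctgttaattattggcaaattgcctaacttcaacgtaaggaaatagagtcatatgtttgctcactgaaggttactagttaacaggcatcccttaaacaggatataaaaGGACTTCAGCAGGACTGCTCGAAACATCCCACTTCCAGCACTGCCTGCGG
TATAAA, the letters of a TATA box, was found on either strand in 13.6% of 32544 RefSeq windows of this length. Among the 10 windows of the 7 genes with an entry it was in those of Afp, where it began 7 bases before the start, Apoa2, Apob and Apoe. Neither TTCNNNGAA, a STAT-type motif found in 8.33% of all windows, nor TGACCTTTG, part of the HNF4 motif found in 0.482%, was in any of the 10. Windows of Ttr, Trf and Apoc3 were not analysed here. A match describes letters only.

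Between 26549326 and 38388133 read counts fell on genes in each library, so counting error was small for every gene named below at more than a few CPM (counts scaled to library size with TMM factors). Labelled tissues were checked against defining markers. The summed level of 8 hepatocyte markers was 23645 to 30528 CPM in liver, 40.1 to 140 CPM in brain and 12.3 to 20.2 CPM in skin. Of these 8, 6 were under 1 CPM in every brain. Neuron markers summed to 5765 to 7745 CPM in brain, and markers of epidermis and dermis to 38694 to 59984 CPM in skin. The brain library of WT 5 stood apart, with a mean correlation of 0.943 with the other brains against 0.979 to 0.983 for the remaining ones. Litter, sex and dissection are not given by the labels, and in whole tissue, fewer cells of a type and less RNA per cell cannot be told apart.

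The 10 genes took between 22.2% and 25.4% of all counts in the newborn liver. Their share was 22.7% and 22.2% in KI 1 and KI 2, and 22.6%, 23.9%, 25.2%, 23.3% and 25.4% in WT 1 to WT 5. The means were 22.5% ± 0.347 (SD, n = 2) and 24.1% ± 1.21 (SD, n = 5), and the ranges overlapped. The 5 carriers made up most of it, at 20.0% ± 0.315 of counts in KI and 21.4% ± 1.12 in WT, against 2.51% ± 0.0322 and 2.67% ± 0.147 for the 5 apolipoproteins. In the other tissues the same genes took 0.103% to 0.365% of brain counts and 0.106% to 0.494% of skin counts. These sums were not tested.

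Alb was the most counted gene in all 7 livers and Trf the next, with Afp and Ahsg at ranks 3 and 4. Counts favour long transcripts, so levels were compared between genes as RPKM, counts scaled to library size and to the exon length in the annotation. In WT livers, Alb stood highest with a median of 50817 RPKM. Ahsg followed at 20034 RPKM. Afp, the fetal carrier that is switched off after birth, was still at 13366 RPKM, and its range overlapped that of Trf at 11315 RPKM, which in turn overlapped Apoa1 at 9575 RPKM. Apoe (4544 RPKM), Ttr (4178 RPKM) and Apoa2 (4004 RPKM) formed a run of overlapping ranges. Apob, the large scaffold of very-low-density lipoprotein, had a median of 229 RPKM. Apoc3 was lowest at 148 RPKM, and neither of these ranges overlapped another.

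**Figure D1:**
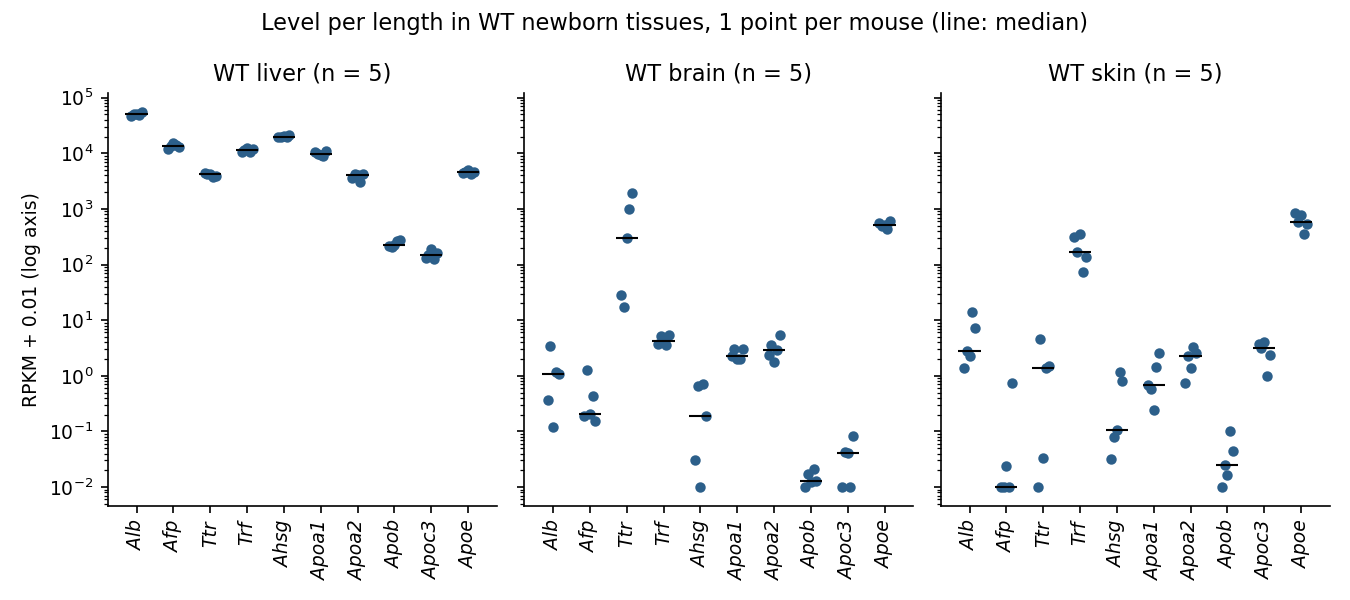
Level per length (RPKM plus 0.01, log axis) of the 10 genes in WT liver, brain and skin, with 1 point per mouse (n = 5) and a line at the median. All 10 lie highest in liver, where Alb has a median of 50817 RPKM, and only Apoe, Ttr and Trf reach a median over 100 RPKM in another tissue.

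Levels of single genes were steady among WT livers. The highest WT liver exceeded the lowest 1.12-fold for Ttr, 1.27-fold for Alb, 1.39-fold for Afp and 1.57-fold for Apoc3. The number of Alb counts per Afp count, given as a description, was 4.49 and 3.36 in KI 1 and KI 2 and ranged from 3.27 to 4.19 in WT livers. KI 1 lay above the WT range and KI 2 within it.

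Whether the plasma protein genes shifted in the KI liver was then tested. Of the 14966 genes tested with edgeR's quasi-likelihood test, 5.57% were called at a Benjamini-Hochberg adjusted p under 0.1, 3.89% as higher and 1.68% as lower in KI. Apoc3 fell, and the remaining 9 genes were not called. The median log2 fold change of the 10 was -0.15, against -0.02 over all genes tested, and 8 of the 10 values were negative. Both KI livers lay below all WT livers for Ttr, Apoa1 and Apoc3, that is 3 of 10, and for 11.3% of all genes tested. No gene of the 10 had both KI livers above all WT livers, a position held by 13.0% of all genes.

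None of the 4 carriers known as negative acute-phase proteins was called. Alb was at 95372 and 87984 CPM in KI and at 91840, 101706, 108307, 100962 and 116437 CPM in WT livers. The groups overlapped, with a log2 fold change of -0.18 (95% interval -0.43 to 0.07, edgeR adjusted p = 0.448). Ttr was at 4297 and 4700 CPM in KI and at 5163, 4990, 5300, 4724 and 4912 CPM in WT livers. KI 2 lay just under the lowest WT liver, and the log2 fold change of -0.16 (-0.37 to 0.06) had an edgeR adjusted p of 0.429. Trf, with a log2 fold change of -0.01 (-0.28 to 0.25, edgeR adjusted p = 0.968), and Ahsg, with 0.03 (-0.20 to 0.27, edgeR adjusted p = 0.898), had overlapping groups. The intervals of all 4 carriers include both a fall and a rise.

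Afp, which the liver makes before birth and again when it regenerates, was at 21220 and 26157 CPM in KI and at 23795, 27314, 33109, 29266 and 27766 CPM in WT livers. KI 1 was the lowest of the 7 and KI 2 lay inside the WT range. The log2 fold change was -0.25 (95% interval -0.57 to 0.06, edgeR adjusted p = 0.388).

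**Figure D2:**
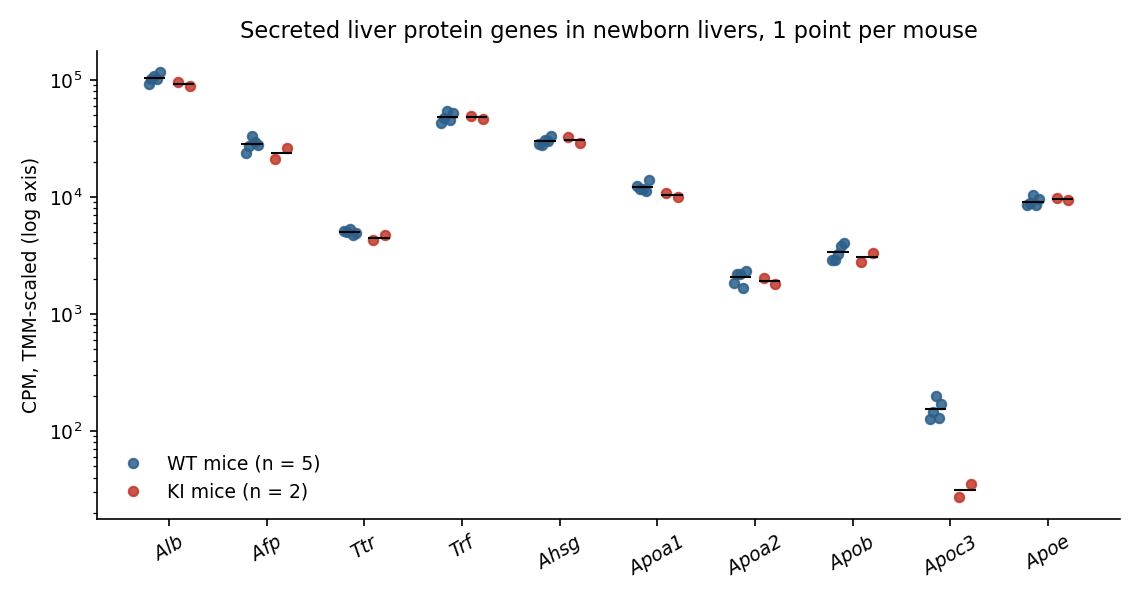
TMM-scaled CPM (log axis) of the 10 genes in each newborn liver, 5 WT and 2 KI mice, with a line at each group's mean. The groups lie side by side for the abundant carriers, and the 2 KI livers lie far under the WT livers for Apoc3, at 27.2 and 35.7 CPM against 127 to 199 CPM.

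Apoc3, a small exchangeable apolipoprotein that inhibits lipoprotein lipase and slows the clearance of triglyceride-rich particles, fell in the KI liver. It was at 27.2 and 35.7 CPM in KI and at 127, 147, 199, 131 and 170 CPM in WT livers. The groups did not overlap, and the means were 31.5 ± 5.97 CPM (SD, n = 2) and 155 ± 30.1 CPM (SD, n = 5). The log2 fold change was -2.30 (SE 0.21, 95% interval -2.78 to -1.82, edgeR adjusted p = 0.00158), or 4.92-fold lower. Under the 15 alternative settings it ranged from -2.51 to -2.10, and Apoc3 was called lower in each, with adjusted p-values up to 0.0279. The raw counts behind this were 875 and 1255 in KI and 4161 to 5836 in WT livers.

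Apoc3 lies on chromosome 9 in a cluster with other apolipoprotein genes, which allowed its neighbours to be compared. It spans chr9:46041016-46043719 on the minus strand of NCBIM37, 2466 bases past the end of Apoa1 (chr9:46036663-46038549, plus strand) and 5059 bases before Apoa4 (chr9:46048779-46051542, plus strand). Apoa5 follows at chr9:46076716-46080002. Apoa1 forms the core of high-density lipoprotein, Apoa4 is a lipid-binding apolipoprotein induced by fat absorption, and Apoa5 activates lipoprotein lipase.

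All 4 genes of the cluster had both KI livers under all WT livers, a position held by 11.3% of all genes tested, and Apoa5 was added to the others after its values were seen. Apoa1 was at 10698 and 9919 CPM in KI and at 12330, 11594, 11661, 11146 and 13983 CPM in WT livers, a log2 fold change of -0.24 (95% interval -0.49 to 0.02, edgeR adjusted p = 0.314). Apoa4 was at 14.6 and 41.3 CPM in KI and at 92.8, 59.1, 84.7, 52.2 and 62.8 CPM in WT livers, with -1.33 (SE 0.38, edgeR adjusted p = 0.105). Apoa5 was at 325 and 400.0 CPM in KI and at 462, 462, 437, 716 and 411 CPM in WT livers, with -0.46 (SE 0.21, edgeR adjusted p = 0.301). Among these neighbours Apoc3 was called and the others were not. Per 1000 Apoa1 counts, Apoc3 had 2.55 and 3.60 counts in KI and 10.3 to 17.1 counts in WT livers, with no overlap. The differences between neighbours were not tested.

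**Figure D3:**
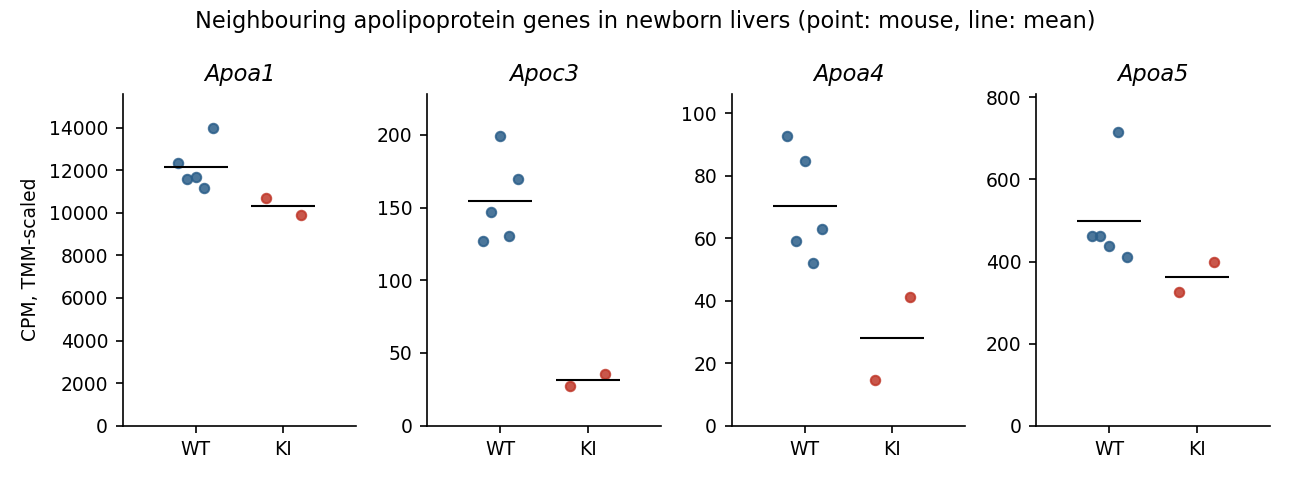
TMM-scaled CPM (linear axes from 0) of the chromosome 9 apolipoprotein genes in each newborn liver, with 5 WT and 2 KI mice and a line at each mean. Apoc3 falls from a mean of 155 to 31.5 CPM. Apoa1, at a far higher level, was at 9919 and 10698 CPM in KI against 11146 to 13983 CPM in WT livers.

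The remaining apolipoproteins were not called. Apoa2, another protein of high-density lipoprotein, was at 1814 and 2011 CPM in KI and 1657 to 2350 CPM in WT livers (log2 fold change -0.11, edgeR adjusted p = 0.754). Apob was at 2765 and 3314 CPM in KI and 2869 to 4066 CPM in WT livers (-0.15, edgeR adjusted p = 0.672). Apoe, the ligand by which remnant particles bind receptors of the low-density lipoprotein family, was at 9872 and 9396 CPM in KI and 8448 to 10343 CPM in WT livers (0.08, edgeR adjusted p = 0.751). In each case the groups overlapped.

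The annotation used for counting is not given in the sources used here. Apoc3 stood far under Apoa1 per length, at 148 against 9575 RPKM, and reads that met more than 1 gene were tallied apart by the authors. Such ambiguous reads were 2.19% and 2.08% of uniquely aligned reads in KI livers, 1.75% to 2.08% in WT livers and 1.24% to 1.31% in skin. Their part in the level or the fall of Apoc3 was not tested.

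**Figure D4:**
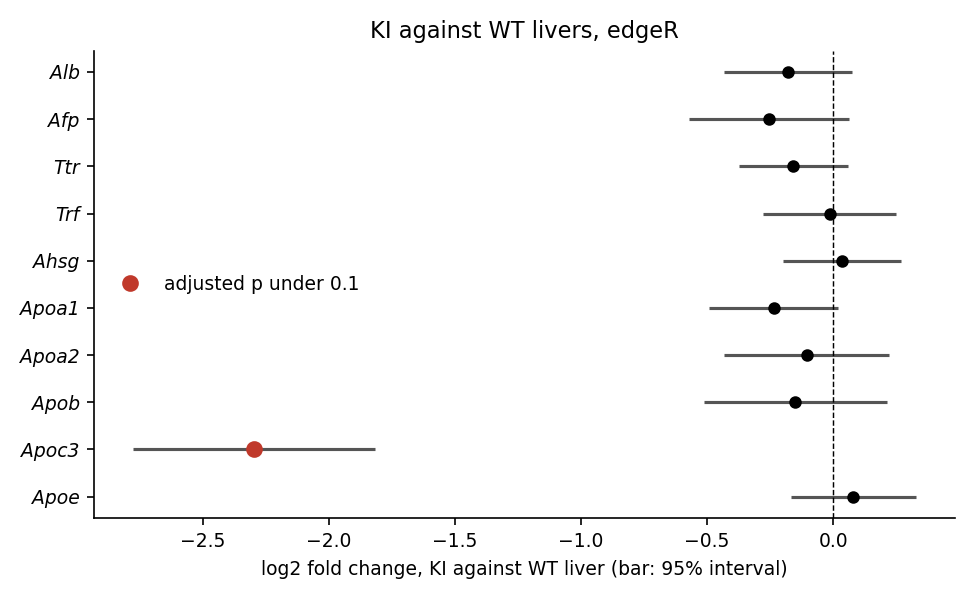
Log2 fold change of the 10 genes between KI and WT livers (edgeR, 2 against 5 mice) with 95% intervals, the called gene in red. Apoc3 stands alone at -2.30 with an interval from -2.78 to -1.82, and the intervals of the other 9 genes include 0.

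Other secreted and lipid-handling genes of the liver gave a mixed picture. Of 9 other plasma carriers, 2 were called higher and none lower, with a median log2 fold change of 0.09. These were Serpina7, the thyroxine-binding globulin, which rose from 70.2 to 114 CPM in WT livers to 206 and 228 CPM in KI (1.30, edgeR adjusted p = 0.00569), and Hpx, the haem scavenger hemopexin, at 1614 and 1827 CPM against 1079 to 1393 CPM (0.50, edgeR adjusted p = 0.0602). Hpx is itself an acute-phase protein. Of 9 other apolipoproteins 8 were tested and none was called, with a median of -0.08. Apoa4, above, and Clu, at 274 and 347 CPM against 184 to 262 CPM (0.37, edgeR adjusted p = 0.250), had the smallest p-values. None of 15 genes of lipoprotein assembly, remodelling and uptake was called either (median 0.07). There the smallest p-values were those of Mttp, which loads lipid onto apolipoprotein B (-0.35, edgeR adjusted p = 0.154), and Abcg1, a cholesterol exporter (0.48, edgeR adjusted p = 0.211).

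Positive acute-phase genes were read in the same fit. Of 15 positive acute-phase genes 13 were tested, 3 were called higher and none lower, with a median of 0.52. The other 10 were not called, and 12 of the 13 had positive log2 fold changes. Lrg1, a glycoprotein induced by IL-6, was at 278 and 277 CPM against 71.6 to 105 CPM (1.62, edgeR adjusted p = 0.000759), Cp, the copper carrier ceruloplasmin, had 0.93 (edgeR adjusted p = 0.0146), and Hamp, the iron hormone hepcidin, had 1.09 (edgeR adjusted p = 0.0536). Alb, Ttr, Trf and Ahsg had no call in these same livers.

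Cell markers moved with genotype in the liver. Of 8 hepatocyte markers none was called, and their summed level was 28717 and 30528 CPM in KI and 23645 to 29822 CPM in WT livers. Some of these 8 were also in the lists of other plasma carriers or positive acute-phase genes above. Erythroid markers had 3 of 7 called lower (2779 and 2876 CPM in KI, 3320 to 4569 CPM in WT), macrophage markers 5 of 7 called higher (1022 and 1246 CPM against 681 to 936 CPM), and neutrophil markers 2 of 6 called higher (6168 and 7276 CPM against 3884 to 5105 CPM). None of these markers was at 0 in the livers. Over the 7 livers Alb and the erythroid sum had r = 0.195 (exact permutation p = 0.666, adjusted 0.666) and rho = 0.214 (exact permutation p = 0.662, adjusted 0.662), and r was 0.409 without WT 1 and KI 2. Among the 5 WT livers alone, r was -0.731. The part of the other markers in the liver values was not tested.

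Outside the liver, the 10 genes were low apart from 3. Among WT mice, 83.4% of 17071 genes differed between liver and brain, 40.2% being higher and 43.3% lower in liver, and 72.3% differed between liver and skin, 32.5% being higher and 39.8% lower in liver. All 10 genes were called higher in liver in both comparisons. The log2 fold changes against brain ran from 3.40 for Ttr (SE 1.15, edgeR adjusted p = 0.0128) and 3.92 for Apoe (SE 0.25, edgeR adjusted p = 4.65e-10) to 16.76 for Ahsg. Those against skin ran from 3.59 for Apoe (SE 0.25, edgeR adjusted p = 2.93e-09) to 17.20 for Afp. These comparisons share the same WT livers, and skin RNA had lower integrity than liver RNA according to the methods, which cannot be told apart from tissue.

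Brain and skin differed in which of the genes they expressed. Of all genes tested, 79.4% were called between WT brain and WT skin, 39.1% higher and 40.3% lower in brain. Ttr (log2 fold change 8.78, SE 1.48, edgeR adjusted p = 5.67e-05) and Apoa1 (1.09, SE 0.45, edgeR adjusted p = 0.0372) were higher in brain, the latter not without WT 1 (adjusted p = 0.120) or WT 2 (0.168). Alb, Trf, Apob and Apoc3 were higher in skin, with log2 fold changes of brain against skin of -2.30, -5.64, -2.74 and -6.64. The value of Alb was not called without WT 4 (-1.54, adjusted p = 0.117). Apoe did not pass the test (-0.33, 95% interval -0.80 to 0.14, edgeR adjusted p = 0.190), nor did Afp, Ahsg and Apoa2, though Afp was called higher in brain without WT 5 (6.40, edgeR adjusted p = 0.000156), and Apoa2 without WT 4 (0.85, edgeR adjusted p = 0.0689) and by DESeq2 (0.64, adjusted p = 0.0802).

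In the brain, Apoe and Ttr were the abundant members. Per length, WT brains had a median of 509 RPKM for Apoe and of 298 RPKM for Ttr, with overlapping ranges. Trf came next at 4.24 RPKM. Apoc3 had 0 to 4 counts and Apob 0 to 18 counts per brain. Neither passed the filter, so 8 of the 10 genes were tested between genotypes. None was called, and 0.00% of the 16322 genes tested were called, with 1732 at an unadjusted p under 0.05 in edgeR and 604 called by DESeq2. For Afp, Apoa1 and Apoe, 3 of the 8, the KI pair lay under every WT brain, as it did for 15.8% of all genes, and for none of the 8 did it lie over every WT brain, against 11.2%. The untested Apob did so, with 8 and 18 counts in KI and 0, 3, 1, 5 and 1 counts in WT brains.

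Apoe, which astrocytes supply to neurons as their main lipid carrier, was at 808 and 856 CPM in KI and at 1101, 973, 996, 862 and 1287 CPM in WT brains. KI 2 lay close to WT 4, the lowest WT brain. The log2 fold change was -0.33 (SE 0.16, 95% interval -0.70 to 0.05, edgeR adjusted p = 0.539). Markers of astrocytes and radial glia summed to 2653 and 2666 CPM in KI and to 3381 to 5723 CPM in WT brains, also without overlap. None of the 8 markers was called, and 5 had positive log2 fold changes (median 0.033). The other 3 were Fabp7 of radial glia (-1.20, edgeR adjusted p = 0.255), Hes5 (-0.69) and Aqp4 (-0.24), so the lower sum did not extend to most of the list. Over the 7 brains Apoe and this sum had r = 0.502 (exact permutation p = 0.261, adjusted 0.348) and rho = 0.643 (exact permutation p = 0.139, adjusted 0.222). Without KI 1 and WT 1, the farthest on the marker axis, r was 0.166. Among the 5 WT brains alone, r was -0.0588.

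Ttr was the most variable of the 10 genes in the brain. It was at 874 and 963 CPM in KI and at 34.1, 20.7, 359, 1210 and 2551 CPM in WT brains. The highest WT brain exceeded the lowest 123-fold, and the KI brains lay close together inside that range. Accordingly the log2 fold change of 0.14 had an SE of 1.48 (95% interval -3.27 to 3.54, edgeR adjusted p = 0.982). Without WT 5, the library that stood apart, it was 1.20 (edgeR adjusted p = 0.624). The rank of Ttr among all genes ran from 13 to 8597 over the 7 brains. Ttr also overlaps a gene model on the opposite strand, and the library kit does not mark strand, so reads of either could not be told apart.

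Markers of choroid plexus epithelium varied with Ttr. Their sum over 10 genes was 121 and 122 CPM in KI and 35.7, 69.0, 76.9, 115 and 117 CPM in WT brains. WT 1 and WT 2, lowest in Ttr, were lowest in these markers too, although the markers spanned a far smaller range. The same sum was higher in every liver and every skin than in any brain. It thus includes genes that other tissues express and does not measure choroid plexus alone. Which of the 10 genes carried the sum in brain was not tested. Over the 7 brains, Ttr and the sum had r = 0.847 (exact permutation p = 0.0137, adjusted 0.0643 over 8 relations) and rho = 0.679 (exact permutation p = 0.110, adjusted 0.219). Without WT 1 and WT 2, r was 0.756 over 5 brains. The 8 relations with marker sums, all two-sided, were chosen with the values known, and their permutations mixed KI and WT libraries. Among WT mice alone, r changed sign for Alb in liver and Apoe in brain, and kept it for the others. By the correlation of log2 CPM over 7 brains, the genes most like Ttr among 12188 were Kcne2 (r = 0.989), a choroid plexus potassium channel subunit that was itself in the marker list, and Cyp46a1 (0.978), Nat10 (0.971), Emc1 (0.969) and Zxdc (0.966). Kcne2 spanned 0.182 to 11.3 CPM, whereas Cyp46a1 spanned only 24.9 to 37.2 CPM.

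**Figure D5:**
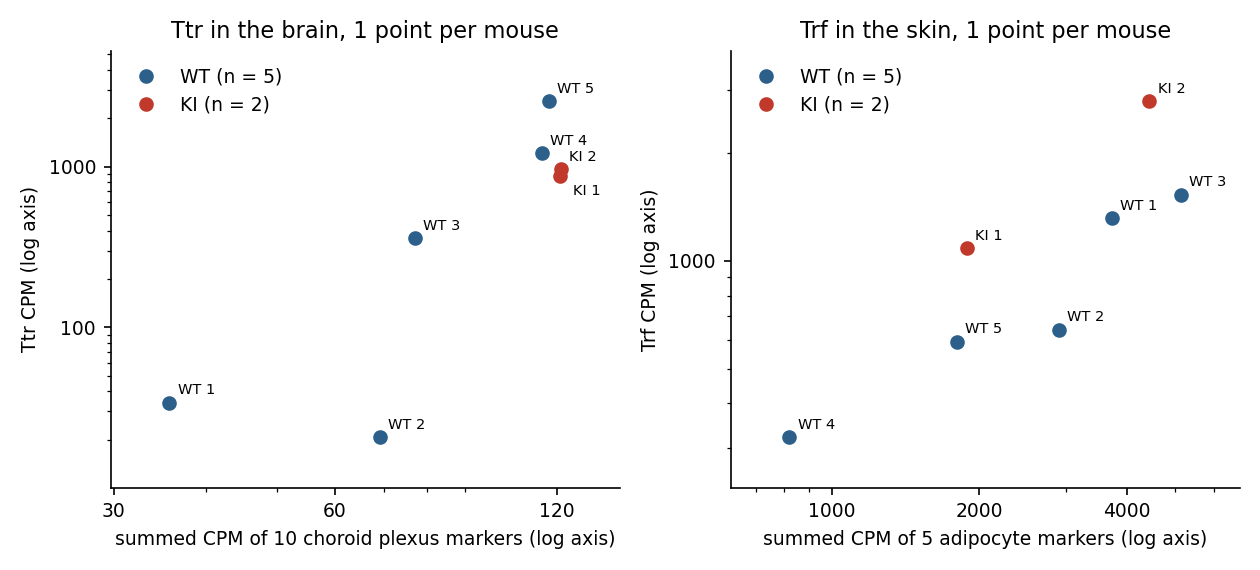
Left, Ttr against the summed level of 10 choroid plexus markers in 7 brains, and right, Trf against that of 5 adipocyte markers in 7 skins, in CPM on log axes, with 1 point per mouse. WT 1 and WT 2 lie lowest for Ttr at 34.1 and 20.7 CPM, and the skins of WT 4 (321 CPM) and KI 2 (2789 CPM) mark the ends for Trf.

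The liver-type genes were scarce in brain and uneven between mice. Afp had 2 and 1 counts in KI and 12, 82, 13, 30 and 8 counts in WT brains. The groups did not overlap, with a log2 fold change of -4.33 (SE 1.29, edgeR adjusted p = 0.331). Apoa1 was at 1.48 and 0.987 CPM in KI and 2.41 to 3.99 CPM in WT brains, with -1.31 (SE 0.35, edgeR adjusted p = 0.290). Both were called lower without WT 5, Afp at -4.52 (edgeR adjusted p = 0.0677) and Apoa1 at -1.18 (edgeR adjusted p = 0.0737), and Apoa1 by DESeq2 (adjusted p = 0.0259). Alb had 9 and 194 counts in KI and 24, 213, 7, 78 and 58 counts in WT brains, so that mice of either genotype lay at both ends. Erythroid markers summed to 5.05 and 6.27 CPM in KI and to 6.19 to 18.2 CPM in WT brains, and their part in these values was not tested. Trf, made in brain by oligodendrocytes and choroid plexus, was at 19.0 and 22.8 CPM in KI and 14.8 to 24.3 CPM in WT brains (log2 fold change 0.15, edgeR adjusted p = 0.855). Over the 7 brains Trf and the summed oligodendrocyte markers had r = -0.324 (exact permutation p = 0.455, adjusted 0.520) and rho = -0.429 (exact permutation p = 0.354, adjusted 0.452). Without WT 1 and WT 5, r was 0.386. Alb and the hepatocyte markers had r = 0.577 (exact permutation p = 0.184, adjusted 0.295) and rho = 0.393 (exact permutation p = 0.396, adjusted 0.452) in brain. Without WT 1 and WT 2, r was 0.225. Of the 8 hepatocyte markers, 6 were under 1 CPM in every brain.

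In the skin, Apoe and Trf were the abundant members, with WT medians of 591 and 165 RPKM and no overlap between them. Apoc3 came next at 3.19 RPKM and overlapped Alb at 2.78 RPKM. Of the 10 genes 9 were tested, Afp being too low, and none was called. Of 16163 genes tested, 0.0247% were called, all higher, with 738 at an unadjusted p under 0.05 in edgeR and 107 called by DESeq2. For none of the 9 did both KI skins lie outside the WT range, against 4.84% of all genes below and 4.91% above.

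Trf was at 1084 and 2789 CPM in KI and at 1313, 642, 1528, 321 and 595 CPM in WT skins. KI 2 was the highest of the 7 and KI 1 lay inside the WT range, with a log2 fold change of 1.14 (SE 0.59, 95% interval -0.22 to 2.50, edgeR adjusted p = 0.999). Among all genes its rank ran from 18 to 360. The sum of 5 adipocyte markers was 1885 and 4442 CPM in KI and 3722, 2901, 5151, 819.9 and 1801 CPM in WT skins, WT 4 being lowest in both. Over the 7 skins Trf and this sum had r = 0.859 (exact permutation p = 0.0161, adjusted 0.0643) and rho = 0.929 (exact permutation p = 0.00675, adjusted 0.0540). Without WT 3 and WT 4, r was 0.733 over 5 skins.

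Apoe, a product of skin macrophages and fat among other cells, was at 1533 and 2232 CPM in KI and at 1626, 1077, 1618, 719 and 1082 CPM in WT skins. KI 2 was again the highest and the groups overlapped (log2 fold change 0.62, SE 0.32, edgeR adjusted p = 0.999). Macrophage markers summed to 487 and 659 CPM in KI and 317 to 434 CPM in WT skins, without overlap. Over the 7 skins Apoe and this sum had r = 0.763 (exact permutation p = 0.0393, adjusted 0.105) and rho = 0.857 (exact permutation p = 0.0238, adjusted 0.0952). Without KI 1 and KI 2, the farthest on the marker axis, r was 0.527 over 5 skins. WT 4 was lowest in Apoe and also in the adipocyte sum, at 819.9 CPM. The relation of Apoe to the adipocyte sum was not tested, so the values do not tie Apoe to macrophages rather than fat.

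The liver-type genes of the skin were highest in WT 4 and WT 5. Alb was at 3.37 and 2.38 CPM in KI and at 2.78, 5.22, 4.83, 29.6 and 15.1 CPM in WT skins, with a log2 fold change of -2.0 (SE 0.97, edgeR adjusted p = 0.999). Ahsg, Apob and Apoa1 were likewise highest in those skins, at 1.71 and 1.16 CPM, 1.33 and 0.493 CPM, and 1.77 and 3.21 CPM. Afp had 44 counts in WT 5 and 0 or 1 count in the other 6 skins, where 0 counts allow up to 0.0867 to 0.104 CPM. By contrast, Ttr was highest in WT 2, at 5.22 CPM. Apoc3 did not follow Alb: it was at 1.92 and 5.40 CPM in KI and at 3.79, 2.98, 4.23, 1.00 and 2.36 CPM in WT skins, lowest in WT 4. The 8 hepatocyte markers, at 17.0 and 20.2 CPM in WT 4 and WT 5, were at 12.3 to 18.9 CPM in the other 5 skins. Over the 7 skins Alb and this sum had r = 0.669 (exact permutation p = 0.109, adjusted 0.218) and rho = 0.786 (exact permutation p = 0.0480, adjusted 0.128), and r was 0.441 without WT 1 and KI 2.

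The size of the KI effect was then compared between tissues in a fit of all 21 libraries. Between liver and brain, 2.81% of 18062 genes were called (1.77% with the higher effect in liver, 1.05% with the lower), and between liver and skin 0.0997% (0.0664% and 0.0332%), with none of the 10 genes among them. Both tests share the liver libraries. Apoc3 had the smallest p-value of the 10 between liver and skin. Its fold change in liver minus that in skin was -2.68 on the log2 scale (SE 0.57, 95% interval -3.87 to -1.49, edgeR adjusted p = 0.128). With each mouse as a block, taking same-numbered libraries of 1 genotype as 1 mouse, it was -2.62 and was called (edgeR adjusted p = 0.0715), as it was without WT 4 (edgeR adjusted p = 0.0907) and by DESeq2 (adjusted p = 0.00986). In skin its KI values lay on both sides of the WT median, with a log2 fold change of 0.35 (95% interval -1.0 to 1.69). Liver minus brain gave -3.70 for Apoc3 (SE 1.61, edgeR adjusted p = 0.276), resting on at most 4 counts in a brain.

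Genes whose pattern over the 7 livers was most like that of Alb or Afp were read as a description. For Alb these were Slc2a2, the hepatocyte glucose transporter (r = 0.990 of log2 CPM), Echs1 (0.981) and Acads (0.981) of fatty acid oxidation, Snx12 (0.981) and Rdh7 (0.973). For Afp they were C87436 (0.975), Abcf2 (0.964), Rhbg (0.953), Gpc4 (0.953) and Slc6a13 (0.952). The comparison covered 10827 genes with a mean of at least 5 CPM, and the 7 points share library scaling.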

How the data were processed

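For each of the 21 libraries the authors deposited a table of raw counts, 1 per gene symbol, made with HTSeq after alignment to mm9 with TopHat2. The counts were not normalized, and 5 summary lines for unassigned reads, 30.4% to 38.1% of all reads tallied, were left out of every test. The libraries, made with a kit that does not mark strand, were grouped by the genotype and tissue of the labels. Genotypes within a tissue, tissues among WT mice, and KI effects between tissues were tested by quasi-likelihood in edgeR 4.0.16 (R 4.3.3) after filterByExpr and TMM. A gene was called where its p, adjusted by Benjamini-Hochberg over all genes tested, was under 0.1. Where nothing states that mice came from separate litters, p-values measure the spread between these mice. Replicate numbers shared by KI and WT mice were not taken as pairs. RPKM used the summed exon length of gencode models on NCBIM37. Levels in CPM use TMM-scaled totals, and shares use plain totals. Marker sums add the CPM of listed markers. Relations were tested by two-sided exact permutation over all orders of the libraries, with ranks and adjusted p-values from scipy 1.17.1. Scripts were tested on simulated data.

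The 10 genes and all gene lists were chosen with earlier results of these data known. From each list the called genes of the liver comparison were named, at most 4 by size of change, or, where none was called, the 2 with the smallest p. Apoa5 was named as a neighbour of Apoc3 after its values were seen. Alternatives were DESeq2 1.42.0 (size factors or Wald test), plain totals, no filter, the replicate number as a block, a Y-linked covariate, 1 fit of all libraries, an adjusted p of 0.05 and each mouse left out. Promoter sequences are from RefSeq, with entries for 7 of 10 genes. The study's gene set analyses were not repeated, and a list of transcription factors is not reported here.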

Additional observations from a re-analysis of the deposited data

Results flagged for a closer look

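Among 29 groups of 5 WT values with at least 10 counts in the tissue, 2 held a value far from the others by Dixon's ratio of gap to range, past its 95% critical value, and chance flags about 1 group in 20. Both concern Afp at trace level. In WT brains, WT 2 had 2.66 CPM, against 0.319 to 0.893 CPM in the other 4 (ratio 0.755). In WT skins, WT 5 had 1.55 CPM, against 0 to 0.0298 CPM in the other 4 (ratio 0.981). WT 2 also had the highest summed hepatocyte markers among brains, at 140 CPM, and WT 5 the highest among skins, at 20.2 CPM. In brain, 6 of these 8 markers were under 1 CPM in every library, so the sum there rests on the remaining ones. The part of the markers in these values was not tested.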

How the results depend on the processing

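Apoc3 was called lower in the liver, and no other of the 10 genes, under all 15 alternatives, and all 10 stayed called higher in WT liver than in WT brain and skin under every alternative that gave a value. Other counts of calls moved. With DESeq2's Wald test, plain totals, the replicate number as a block, the Y-linked covariate, all 21 libraries in 1 fit or an adjusted p of 0.05, the counts that moved by over 1.5 times were as follows. Genes higher in the KI liver (582) became 297 with the covariate, 156 with all libraries and 302 at 0.05, and 49 to 784 with 1 mouse left out. Genes lower (251) became 641, 112, 86 and 81 with DESeq2, the covariate, all libraries and 0.05, and 7 to 506 with 1 mouse left out, 7 being without KI 2 and 506 without WT 4. In the brain (0 higher, 0 lower), DESeq2 gave 80 and 524, the block 783 and 1382, and all libraries 173 and 441, and leaving out 1 mouse gave 0 to 672 and 0 to 1026, the highest without WT 5. In the skin (4 higher, 0 lower), higher genes were 0 with plain totals, the block, 0.05 or WT 4 and WT 5 both left out (chosen after seeing the data), 1 with the covariate, 96 with DESeq2, 22 with all libraries and 0 to 1 with 1 mouse left out, and lower genes 11 with DESeq2 and 1 with all libraries. For liver minus brain, 319 higher became 751 with DESeq2, 154 at 0.05 and 0 to 473 with 1 mouse left out, and 189 lower became 122 with plain totals, 638 with DESeq2, 66 at 0.05 and 0 to 408. For liver minus skin, 12 higher became 61 with DESeq2 and 1 to 18 with 1 mouse left out, and 6 lower became 58 with DESeq2, 3 at 0.05 and 0 to 14. Plain totals moved the median log2 fold change of all genes by -0.79 in WT liver against brain and by -0.71 against skin, where higher genes became 4546 and 2884 and lower genes against skin 11144. The cause of the other moves was not tested.

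Of the 10 genes, the replicate block called Ttr higher (5.11, edgeR adjusted p = 0.00222) and Afp lower (-4.67, edgeR adjusted p = 0.0468) in the brain, 1 in each direction. DESeq2 called 1 lower there, Apoa1, and leaving out 1 mouse 0 to 2. The numbers are shared by KI and WT mice without any sign of a pairing (correlation of deviations -0.161 to 0.260), so this fit is given here only. In liver minus brain, DESeq2 called 1 lower (Apoc3), and leaving out 1 mouse called 0 to 1 higher. In liver minus skin, 1 was called lower (Apoc3) by DESeq2 and with the mouse as a block, and 0 to 1 with 1 mouse left out. In WT brain against skin, 1 to 3 were higher and 3 to 4 lower with 1 mouse left out. Uncalled fold changes near 0 changed sign. In the liver, Trf was 0.0039 with plain totals, 0.10 with the block and -0.057 to 0.044 with 1 mouse left out, Apob was 0.076 with the block, and Ahsg was -0.025 to 0.11 with 1 mouse left out. In the brain, Alb was -0.76 with the block and -3.29 to 1.19 with 1 mouse left out, and Ttr was -0.16 to 1.20. In the skin with the block, Ahsg was 0.94, Apob 0.78 and Apoc3 -0.051, and Apoc3 was -0.11 with the covariate, -0.0012 without WT 4 and WT 5, and -0.59 to 0.95 with 1 mouse left out. In liver minus brain, Alb was -1.49 to 3.07 and Apoa2 -0.043 to 0.60, and in liver minus skin, Afp was -1.94 to 3.09, with 1 mouse left out.

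Haemoglobin genes held at most 0.00122% of the counts of a library, so leaving them out of the denominator could not move the share of counts. Yet erythroid markers summed to 2779 to 4569 CPM in the livers. Reads aligned to more than 1 place, 23.1% to 25.4% of liver reads tallied, were not counted on genes. Their part in the low haemoglobin value was not tested, so shares and ranks hold among counted reads only. The share without mitochondrially encoded genes was not run, since no such gene was listed. With 2 KI mice, differences as small as those of the carriers could not be resolved. At a few counts in many libraries, the brain and skin values of Afp, Ahsg and Apob are limited by counting. The same holds for Apoc3 in brain, whereas it had 34 to 154 counts per skin.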
